A study of Sus scrofa with 6 samples.

Results

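The genes described here are 48 genes of the cell cycle and of DNA replication, listed by role, and 37 of them were found by symbol among the 22164 genes of the expression table. A symbol was matched to the gene name that the table gives, and where RRM1 and TYMS had 2 rows each the row with the higher mean was kept. By role, 7 of 10 listed genes of the G1/S step, 10 of 14 genes of S phase, 17 of 20 genes of G2 and mitosis (G2/M) and 3 of 4 inhibitors were found. A further 6 (CCND1, CDK2, CDK6, MCM5, TOP2A and CDKN2C) appeared in the table under a gene number or an older symbol. They are given apart from the 37. MCM6, MCM7, TK1, BIRC5 and TPX2 were not found by name and are not analysed here.

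In a dividing cell, D-type cyclins with CDK4 or CDK6 and then E-type cyclins with CDK2 release E2F factors from the retinoblastoma protein, which lets the cell leave G1. E2F factors raise the genes of the replication machinery, such as the MCM helicase, and of nucleotide synthesis. Later in the cycle FOXM1 and MYBL2 raise the mitotic genes, among them CCNB1, PLK1 and AURKA. CDK inhibitors hold this sequence back. In many epithelial cells TGF-β stops the cycle in G1 by raising CDKN2B and CDKN1A and lowering MYC, while the response of mesenchymal cells such as preadipocytes varies with the cell and its culture.

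Porcine preadipocytes, the precursors of adipocytes, came from subcutaneous adipose tissue of 5-day-old pigs. One group of 3 samples was given TGF-β1, a recombinant human protein, at 10 ng/mL, and the other group of 3 samples received citric acid at 10 mM as the negative control (NC). RNA was collected after 48 h in both groups. The paper calls the 3 samples of a group biological replicates. The source names of the 6 samples run from Junmu No. 1 to Junmu No. 6 white pigs, which leaves unclear whether these are 6 animals or a breed name, and p-values measure only the spread between these samples. The cultures were not sorted, and in such bulk samples fewer cells of a type and less RNA per cell cannot be told apart.

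Expression was given as FPKM, the fragments mapped to a gene, scaled by transcript length and by the fragments mapped in the sample, without read counts. The FPKM summed to 392976 to 404489 in the TGF-β1 samples and to 418531 to 448468 in the NC samples. Relative to NC replicate 1, the depth estimated from low values was 0.740 to 0.842 in the TGF-β1 samples and 0.778 to 1 in the NC samples. These depths rest on 24 to 28 genes per pair of samples, and read counts per sample are not in the files. For whole groups, the paper reports more raw reads with TGF-β1 than in the control, and the estimates did not follow that order. Of 14 stromal markers 13 were found, with summed FPKM of 8930 to 10400 in TGF-β1 samples and 8870 to 9990 in NC samples. Most of this sum was VIM and COL1A2, whose log2 fold changes were -0.257 and 0.405. Of the 13, 8 were above 0 and 5 below. The groups of COL1A1, COL1A2 and COL3A1 were separate as higher and those of CD34 as lower. Of 8 adipocyte markers 7 were found, with sums of 1.63 to 2.46 in TGF-β1 samples and 1.66 to 3.32 in NC samples. Genes known to respond to TGF-β had log2 fold changes above 0 in 11 of 14 cases, against 5853 of all 17708 genes tested. None of the 14 passed the test. Several lay near 0, such as LTBP2 (0.004) and CTGF (0.006), and the value of ID3 (2.105) rested on TGF-β1 replicate 3, at 178 FPKM. That of SKIL (0.653, standard error 2.19) rested on low values in TGF-β1 replicate 2 (0.331 FPKM) and NC replicate 1 (0.0224 FPKM). The other samples had 8.59 to 9.55 FPKM of SKIL. Groups were separate for PMEPA1 and COL1A1, which were higher, and for ID1, which was lower, and overlapped for the others. Of 12 epithelial markers 12 were found and 8 tested, all 8 with log2 fold changes above 0. KRT5, KRT8, EPCAM and COL17A1 passed 0.1 FPKM only in the TGF-β1 samples. They entered the test through that group alone, which fixed their sign beforehand. The 2 that passed, the keratins KRT5 and KRT8, were among these. KRT5 had 1.95 to 2.29 FPKM in the TGF-β1 samples and was listed at 0 in all NC samples. KRT8 had 0.221 to 0.353 FPKM in the TGF-β1 samples and at most 0.0152 FPKM in the NC samples. KRT18, CDH1, CLDN4 and DSP, at most 0.158 FPKM in any sample, were not tested. Any part of epithelial cells in the values below was not tested.

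The question for the cell cycle genes was whether 48 h of TGF-β1 changed them. Differences were tested with limma on log2(FPKM + 0.1) over the 17708 genes whose FPKM passed 0.1 in 3 samples or more, with p-values adjusted over all of them and a threshold of 0.1. All 37 members were tested, and none passed, with limma's trended and robust fit included. The lowest adjusted p from limma among them was 0.411, for CDC6 and TYMS. Of all genes tested, 0.0508% passed as higher and 0.0452% as lower, so that calls were rare throughout. These are 9 and 8 genes, which became 26 and 15 without TGF-β1 replicate 1, 16 and 20 without TGF-β1 replicate 2, 17 and 13 without TGF-β1 replicate 3, and 11 and 4 without NC replicate 2. At an unadjusted p of 0.05, 2 of the 37 (5.41%) were lower, against 7.26% of all genes, and 0 were higher, against 2.72%. The 3 values of the TGF-β1 group lay below the 3 values of the NC group in 4 of the 37 (10.8%), against 14.3% of all genes, and above them in 0, against 3.83%. The log2 fold change was below 0 in 25 of the 37 (67.6%), and in 66.9% of all genes. All these shares for the 37 genes were close to or below those of other genes. The median log2 fold change was -0.075 over the 37 and -0.10 over all genes, and after median-ratio scaling, which brings the typical gene of each sample to the same level, these medians were 0.025 and -0.005.

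By role, and as a description without a test, the S phase genes lay lowest, with 9 of 10 log2 fold changes below 0 and a median of -0.27. The G2/M genes had 9 of 17 below 0 and a median of 0.00, and after median-ratio scaling 6 of 17 below 0 and a median of 0.10. The G1/S genes had 5 of 7 below 0 and a median of -0.04, which turned to 0.06 after median-ratio scaling. For S phase genes the median stayed below 0 after this scaling, at -0.17, with 8 of 10 below 0. The 4 members whose groups did not overlap (10.8% of the 37) were S phase genes. They were 4 of the 10 S phase genes (40%), where 14.3% of all genes lay lower without overlap. After median-ratio scaling CDC6 and TYMS were separate, 2 of the 37 (5.41%) and 2 of the 10 S phase genes (20%). Of all genes, 7.27% then lay lower without overlap. The same 2 genes were those lower at an unadjusted limma p of 0.05 (20% of the 10), against 7.26% of all genes. This list of 10 is short and was chosen with earlier results of these data known.

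**Figure D1:**
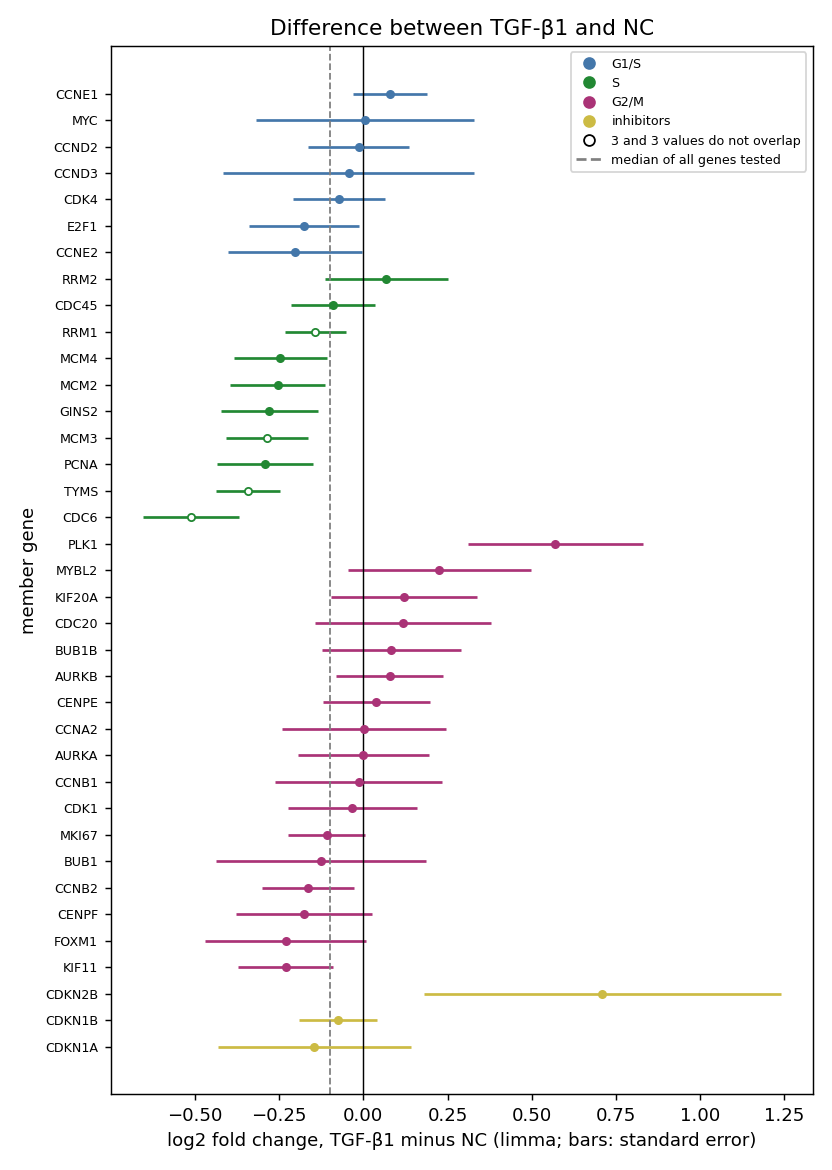
Log2 fold change of each of the 37 members (x axis, TGF-β1 minus NC on the log2(FPKM + 0.1) scale, bars giving the standard error), by role. Open circles mark the 4 genes whose 3 TGF-β1 and 3 NC values do not overlap, all of S phase, and the dashed line marks the median of all genes tested, -0.10. Of 10 S phase genes, 9 lie left of 0.

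TYMS encodes thymidylate synthase, which makes the thymidine nucleotide for DNA. It had 36.5, 37.9 and 36.7 FPKM in the TGF-β1 samples, against 46.7, 50.7 and 43.8 FPKM in the NC samples. All 3 TGF-β1 values lay below the NC values and close to each other, with means of 37.0 ± 0.707 FPKM with TGF-β1 and 47.1 ± 3.50 FPKM in NC (SD, n = 3 each). On the log2 scale the difference was -0.34 (standard error, SE, 0.10, limma adjusted p = 0.411), and the groups stayed separate after median-ratio scaling. A second row named TYMS had 4.32, 3.71 and 1.36 FPKM in the TGF-β1 samples and 1.44, 4.40 and 6.39 FPKM in the NC samples, which overlap. How fragments were divided between both rows is not known, so the level of TYMS is uncertain to that extent.

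CDC6, which loads the MCM helicase onto replication origins, was among the lowest members in level, with 0.580, 0.479 and 0.589 FPKM in the TGF-β1 samples, against 0.702, 0.951 and 0.832 FPKM in the NC samples. The groups did not overlap, and did not after median-ratio scaling. Its log2 fold change of -0.51 (SE 0.14, limma adjusted p = 0.411) was the lowest of the 37. At such FPKM values the added 0.1 lessens the fold change, which was -0.58 with a pseudocount of 0.01 and -0.24 with a pseudocount of 1.

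MCM3, a subunit of the MCM helicase, had 5.20, 5.42 and 5.15 FPKM in the TGF-β1 samples, against 5.6, 6.61 and 7.21 FPKM in the NC samples. The TGF-β1 values lay together below the spread NC values, but the groups overlapped after median-ratio scaling. Its log2 fold change was -0.29 (SE 0.12, limma adjusted p = 0.516). MCM2 and MCM4, of the same helicase, had log2 fold changes of -0.25 and -0.25 with groups that overlapped, since TGF-β1 replicate 1 reached 7.57 and 10.4 FPKM. GINS2 and CDC45 encode parts of the complex that makes the helicase active, and their log2 fold changes were -0.28 and -0.09. MCM5, matched by its gene number, had 6.89, 7.41 and 5.47 FPKM in the TGF-β1 samples and 5.94, 6.41 and 6.71 FPKM in the NC samples, and so lay on the other side at 0.04.

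PCNA, the sliding clamp of the DNA polymerases, had 23.5, 25.6 and 27.0 FPKM in the TGF-β1 samples, against 26.2, 32.3 and 35.3 FPKM in the NC samples. Only NC replicate 1 fell within the TGF-β1 range, and the log2 fold change was -0.29 (SE 0.14, limma adjusted p = 0.556). RRM1 and RRM2 are the subunits of ribonucleotide reductase, the enzyme that makes deoxyribonucleotides. RRM1 had 20.3, 19.8 and 19.1 FPKM in the TGF-β1 samples, against 21.0, 23.2 and 21.3 FPKM in the NC samples. These groups did not overlap before scaling and overlapped after median-ratio scaling, where the log2 fold change was -0.04 in place of -0.14. Its second row gave 15.4, 13.9 and 14.4 FPKM in the TGF-β1 samples and 17.0, 18.0 and 16.2 FPKM in the NC samples. These groups did not overlap before scaling either, and the log2 fold change was -0.22 (SE 0.095, limma adjusted p = 0.520). How fragments were divided between both RRM1 rows is not known. RRM2 was the 1 S phase gene above 0, with 12.9, 10.0 and 8.62 FPKM in the TGF-β1 samples and 11.0, 9.96 and 8.80 FPKM in the NC samples. Its values spread within a group as those of the mitotic genes did.

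**Figure D2:**
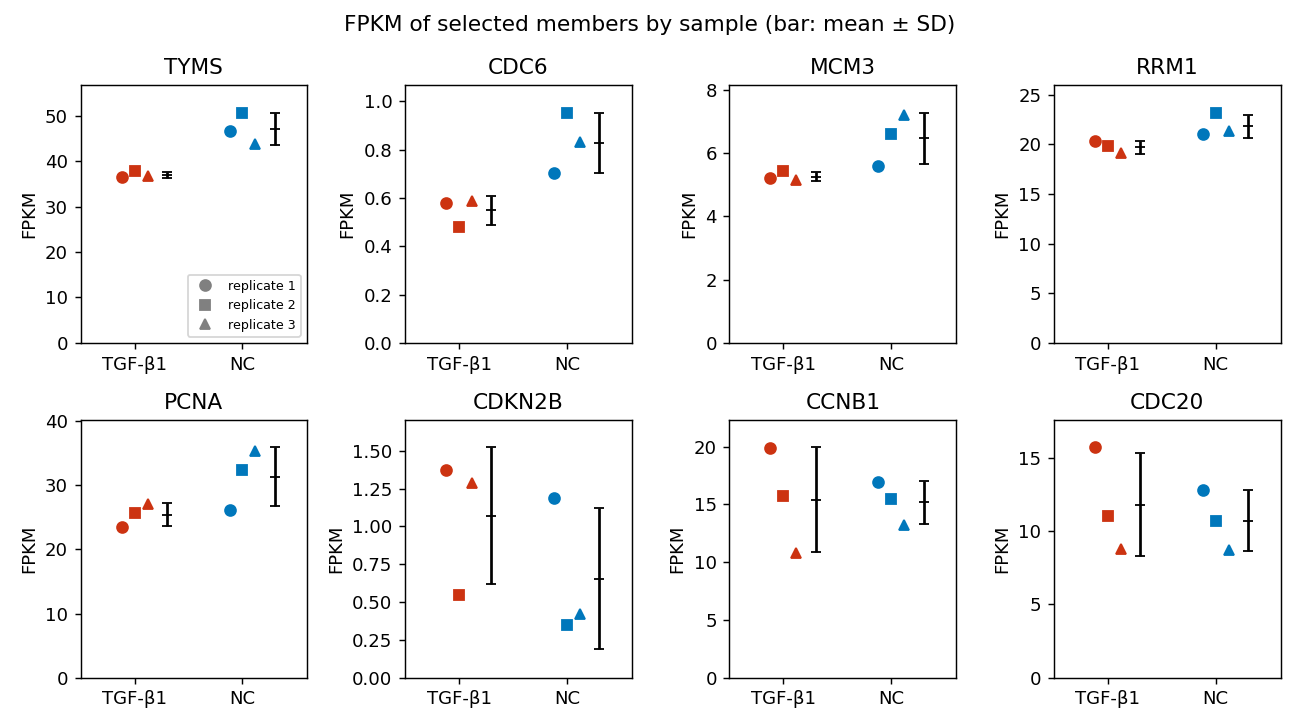
FPKM (y axis, from 0) of 8 members in the 3 TGF-β1 samples (red) and the 3 NC samples (blue), with marker shapes for the replicate numbers and black bars for mean ± SD. The upper row holds the 4 genes whose groups do not overlap. PCNA overlaps only through NC replicate 1, while the groups of CDKN2B, CCNB1 and CDC20 overlap more, and the CCNB1 values spread more in the TGF-β1 samples (SD 4.54) than in the NC samples (SD 1.86).

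At the G1/S step no member separated the groups, and log2 fold changes ran from -0.20 for CCNE2 to 0.08 for CCNE1, with adjusted p of 0.727 to 0.997 from limma. CDK4, the kinase partner of the D-type cyclins, had the highest mean of the 37 at 42.5 FPKM. It had 39.3, 41.1 and 43.3 FPKM in the TGF-β1 samples, against 38.6, 41.1 and 51.3 FPKM in the NC samples, and the log2 fold change of -0.07 turned to 0.05 without NC replicate 3 and to 0.03 after median-ratio scaling. MYC, a transcription factor that drives entry into the cycle, had 5.50, 3.47 and 4.61 FPKM in the TGF-β1 samples and 5.68, 2.84 and 5.39 FPKM in the NC samples. Replicate 2 was the lowest of each group. The log2 fold change of MYC was 0.00, with a 95% interval of -0.81 to 0.82, so that a change of the size of its spread between replicates was not detectable.

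CCND2 was the D-type cyclin with the highest level, at 24.2, 28.3 and 22.3 FPKM in the TGF-β1 samples and 22.3, 28.7 and 24.5 FPKM in the NC samples. Its log2 fold change was -0.01 (95% interval -0.39 to 0.36). CCND3 ranged from 4.83 to 10.6 FPKM in the TGF-β1 samples and from 6.75 to 11.1 FPKM in the NC samples. CCND1, a D-type cyclin matched by its gene number, had 7.43, 6.66 and 14.9 FPKM in the TGF-β1 samples, against 7.68, 7.31 and 6.63 FPKM in the NC samples. The difference rested on TGF-β1 replicate 3, as the log2 fold change was 0.33 (SE 0.32, limma adjusted p = 0.746) and -0.03 without that sample. The E-type cyclins CCNE1 and CCNE2 and the factor E2F1, which acts on the replication genes, had means of 2.86, 1.67 and 2.32 FPKM with TGF-β1 and of 2.71, 1.94 and 2.65 FPKM in NC. CDK2 and CDK6, the other kinases of this step and both matched by gene number, had log2 fold changes of -0.24 and 0.02.

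None of the inhibitors passed the test, and their groups overlapped. CDKN2B encodes p15, an inhibitor of CDK4 and CDK6. It had 1.37, 0.549 and 1.29 FPKM in the TGF-β1 samples, against 1.19, 0.349 and 0.422 FPKM in the NC samples. The TGF-β1 group held 2 high values and the NC group 1, in replicate 1, and each group had a low value in replicate 2. The log2 fold change of 0.71 was the largest of the 37 and also the least certain (SE 0.53, 95% interval -0.62 to 2.04, limma adjusted p = 0.673). Leaving out 1 sample moved it between 0.42 and 1.18. CDKN1A encodes p21, which inhibits several CDKs and is also raised by p53. It had 29.8, 15.5 and 30.5 FPKM in the TGF-β1 samples and 25.2, 26.7 and 28.4 FPKM in the NC samples. TGF-β1 replicate 2 stood alone at the low end. CDKN1A differed by -0.15 on the log2 scale (SE 0.29, limma adjusted p = 0.874) and 0.17 without that sample. CDKN1B, which encodes p27, had 12.3, 12.5 and 10.9 FPKM in the TGF-β1 samples and 13.9, 11.9 and 11.8 FPKM in the NC samples. Its log2 fold change was -0.075 (95% interval -0.37 to 0.22) and 0.025 after median-ratio scaling. CDKN2C, which encodes p18 and was matched by its gene number, had 4.06, 4.65 and 4.68 FPKM in the TGF-β1 samples and 3.75, 5.17 and 7.58 FPKM in the NC samples. Its NC values spanned the TGF-β1 values, and the log2 fold change of -0.24 turned to 0.02 without NC replicate 3.

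MKI67 encodes the protein Ki-67, a label of dividing cells, and had the highest level of the G2/M genes. It had 38.9, 35.7 and 38.8 FPKM in the TGF-β1 samples, against 40.1, 45.6 and 37.1 FPKM in the NC samples. Both groups held transcripts of dividing cells, and the groups overlapped at NC replicate 3. The log2 fold change was -0.11 (SE 0.11, 95% interval -0.40 to 0.18, limma adjusted p = 0.758), about that of the median gene, and -0.01 after median-ratio scaling. TOP2A, a topoisomerase that untangles DNA before mitosis, was matched by an older symbol and had a log2 fold change of -0.14.

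CCNB1, the cyclin that partners CDK1 at mitotic entry, had 19.9, 15.7 and 10.8 FPKM in the TGF-β1 samples, against 16.9, 15.5 and 13.2 FPKM in the NC samples. The highest and the lowest value of CCNB1 were both in TGF-β1 samples, and the means were 15.4 ± 4.54 FPKM with TGF-β1 and 15.2 ± 1.86 FPKM in NC (SD, n = 3 each). CDC20, which activates the anaphase-promoting complex, had 15.7, 11.0 and 8.80 FPKM in the TGF-β1 samples and 12.8, 10.7 and 8.67 FPKM in the NC samples. KIF20A, a kinesin of cytokinesis, had 13.8, 10.7 and 8.44 FPKM in the TGF-β1 samples and 11.3, 10.1 and 8.44 FPKM in the NC samples. In these 3 genes the sample numbered 1 was the highest and the sample numbered 3 the lowest of each group. CDK1, CCNA2, CENPF and BUB1, the last a kinase of the spindle checkpoint, had log2 fold changes of -0.03, 0.00, -0.18 and -0.13 with SEs of 0.19 to 0.31.

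Across the 17 G2/M genes, the lowest value of each group was in its sample numbered 3 in 11 (64.7%), against 22.7% of all genes tested and 1 of 10 S phase genes. The highest value of each group was in its sample numbered 1 in 8 of the 17 (47.1%), against 17.8% of all genes and 1 of 10 S phase genes. Members with another order included MKI67, AURKB and CENPE. Over the 17 genes, the mean log2 level relative to each gene's own mean was 0.29, -0.01 and -0.27 in the TGF-β1 samples and 0.05, 0.05 and -0.11 in the NC samples. The mitotic level thus differed most among the TGF-β1 samples, and the groups overlapped.

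**Figure D3:**
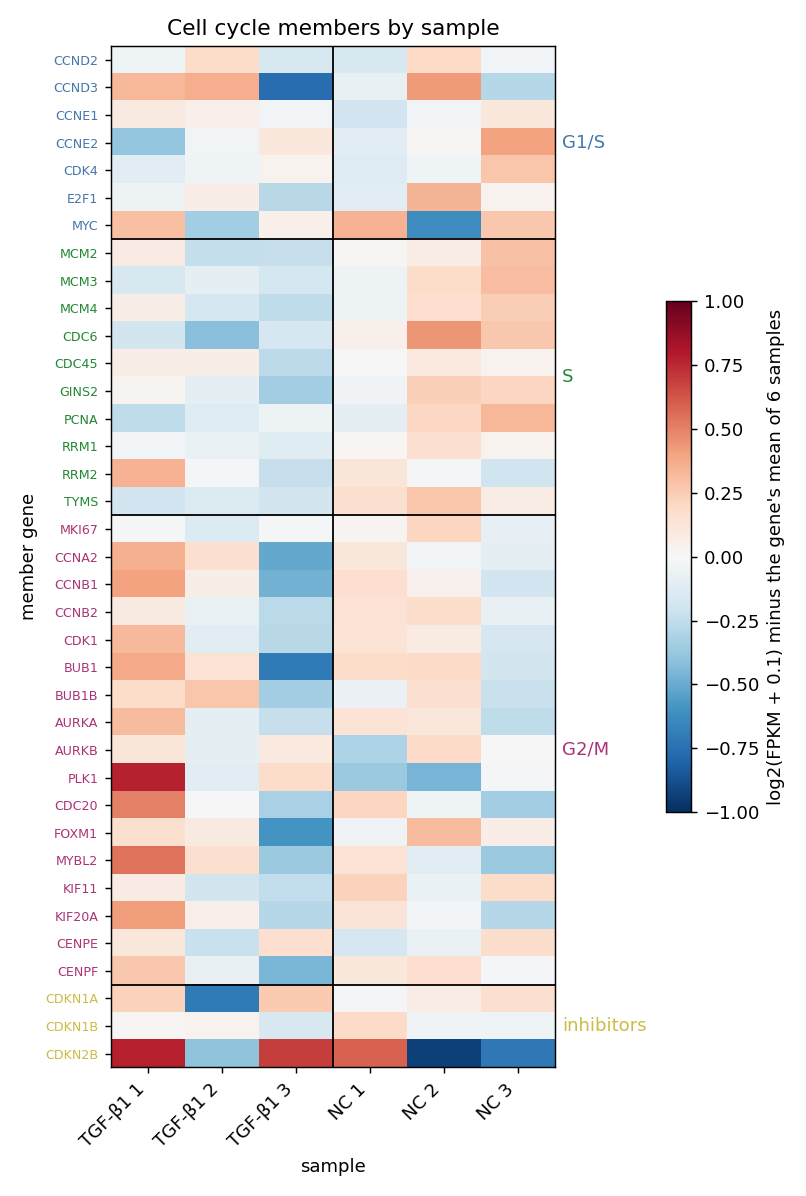
Level of each of the 37 members (rows, by role) in the 3 TGF-β1 samples and the 3 NC samples (columns), as log2(FPKM + 0.1) minus the gene's mean over the 6 samples, red for higher and blue for lower. Nearly all G2/M genes are red in TGF-β1 replicate 1 and most are blue in TGF-β1 replicate 3, while nearly all S phase genes are blue in TGF-β1 replicates 2 and 3 and red in NC replicates 2 and 3.

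PLK1, a kinase of mitotic entry and spindle assembly, was the G2/M gene with the largest difference. It had 2.27, 1.19 and 1.48 FPKM in the TGF-β1 samples, against 0.973, 0.908 and 1.27 FPKM in the NC samples. TGF-β1 replicate 1 was the highest, and TGF-β1 replicate 2 lay below NC replicate 3. PLK1 differed by 0.57 on the log2 scale (SE 0.26, limma adjusted p = 0.537). The transcription factors of the mitotic program differed in sign, as MYBL2 had a log2 fold change of 0.23 (SE 0.27) and FOXM1, at 0.404 to 0.751 FPKM in the TGF-β1 samples and 0.642 to 0.848 FPKM in the NC samples, of -0.23 (SE 0.24). KIF11, the kinesin that separates the spindle poles, was at -0.23 (SE 0.14). The kinases AURKA and AURKB, the checkpoint protein BUB1B, the cyclin CCNB2 and the kinetochore motor CENPE had log2 fold changes between -0.17 and 0.08.

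The S phase genes, taken the same way, had means of -0.02, -0.13 and -0.20 in the TGF-β1 samples and of 0.01, 0.18 and 0.16 in the NC samples. Here the TGF-β1 samples lay below the NC samples. All genes tested had means of -0.08, -0.01 and -0.03 in the TGF-β1 samples and 0.03, 0.07 and 0.03 in the NC samples, which also do not overlap. The S phase mean minus the G2/M mean of the same sample, which a scaling of whole samples would hardly move, was -0.32, -0.13 and 0.07 in the TGF-β1 samples and -0.03, 0.13 and 0.27 in the NC samples, and these overlap.

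Macrophage markers moved with the sample numbers as well. Of 14 such markers 13 were found, all of them above 0 in every sample, and their summed FPKM was 78.2, 286 and 431 in the TGF-β1 samples, against 148, 483 and 654 in the NC samples. The sum was lowest in the sample numbered 1 of each group and highest in the sample numbered 3, and 12 of the 13 had a log2 fold change below 0, with a median of -0.73 and none that passed. The part of macrophages in the S phase or G2/M values was not tested. Endothelial markers, of which 6 of 7 were found, had sums of 8.88, 10.5 and 12.8 FPKM in the TGF-β1 samples and 10.0, 14.7 and 17.1 FPKM in the NC samples.

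**Figure D4:**
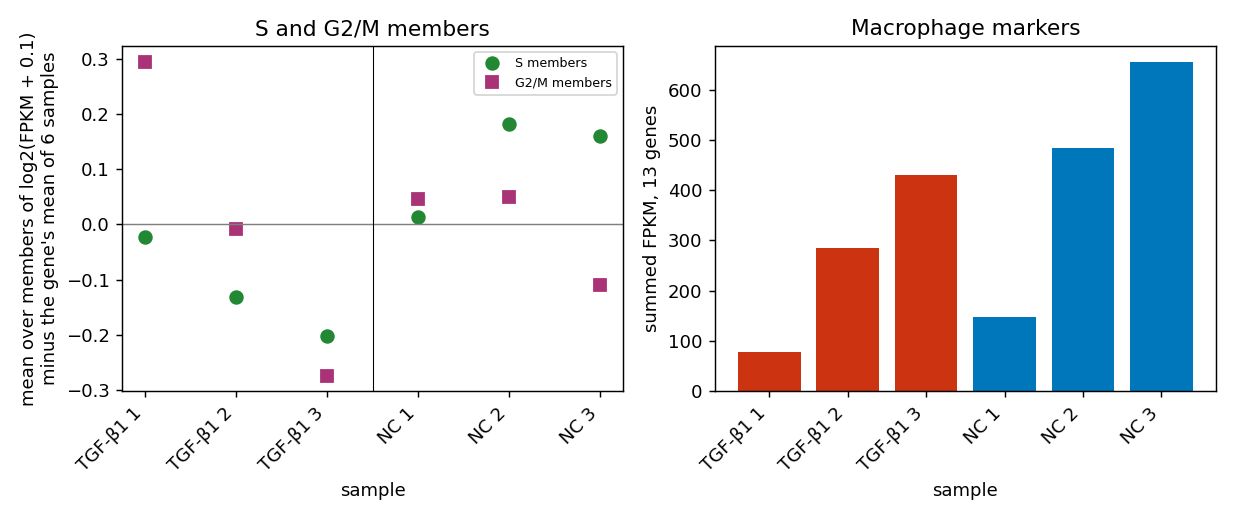
Left, mean level of the S phase members (circles) and G2/M members (squares) in each sample, as log2(FPKM + 0.1) minus each gene's mean over the 6 samples. Right, summed FPKM of 13 macrophage markers, from 78.2 in TGF-β1 replicate 1 to 654 in NC replicate 3. The G2/M mean is 0.29 in TGF-β1 replicate 1 and -0.27 in TGF-β1 replicate 3.

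Another 122 genes of the cell cycle were listed by role, and 112 of them were found. None of the 110 tested passed limma's test, 8 (7.27%) were lower at an unadjusted p of 0.05, against 7.26% of all genes, and 0 were higher, against 2.72%. Without TGF-β1 replicate 2, RPA3 and SMC2 passed as higher. The median log2 fold change of the 110 was -0.11, close to that of all genes. Of 43 further S phase genes, 35 were below 0, with a median of -0.14, against 35 of 46 further G2/M genes with a median of -0.10. After median-ratio scaling these medians were -0.04 and -0.002, against -0.17 for the S phase members. The TGF-β1 values lay below the NC values in 10 of the 43 S phase genes (23.3%) and in 4 of the 46 G2/M genes (8.70%), against 14.3% of all genes. After median-ratio scaling the TGF-β1 values lay below the NC values in 3 of the 43 further S phase genes (6.98%), where 7.27% of all genes did. Among the members this held for 2 of the 37, which are 2 of the 10 S phase members (20%). The TGF-β1 values then lay above the NC values in 0 of the 37 members, where 8.0% of all genes did.

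Among these further genes the largest differences with separate groups were those of GINS3, TROAP and CDT1. After median-ratio scaling the groups of GINS3 and TROAP stayed separate, and those of CDT1 overlapped. GINS3, a partner of GINS2, had 0.466, 0.807 and 0.839 FPKM in the TGF-β1 samples, against 1.34, 1.3 and 1.22 FPKM in the NC samples (log2 fold change -0.82, SE 0.22, limma adjusted p = 0.398). CDT1, which loads the MCM helicase together with CDC6, had 1.84, 1.98 and 1.65 FPKM in the TGF-β1 samples and 2.00, 2.36 and 3.49 FPKM in the NC samples (log2 fold change -0.47, SE 0.22, limma adjusted p = 0.546). TROAP, a protein of the spindle, was low in all samples, at 0.122 to 0.147 FPKM in the TGF-β1 samples and 0.208 to 0.297 FPKM in the NC samples (log2 fold change -0.54, SE 0.13, limma adjusted p = 0.359). The order of the samples seen in the mitotic members was also found among the 46 further G2/M genes, with the lowest value of each group in its sample numbered 3 in 22 (47.8%) and the highest in its sample numbered 1 in 18 (39.1%). CDC25A, the phosphatase that activates CDK2, was matched by its gene number and had 1.96, 1.64 and 1.2 FPKM in the TGF-β1 samples and 1.88, 1.37 and 1.28 FPKM in the NC samples. CDKN2A, an inhibitor beside CDKN2B, was listed at 0 in 2 TGF-β1 samples and 1 NC sample and was not tested. A listed 0 is not proof of absence, as 1 of 66 ribosomal protein genes also had one in some sample.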

How the data were processed

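RNA of 6 preadipocyte samples was sequenced after removal of ribosomal RNA. The authors removed poor reads and adapters, used Sus scrofa 10.2 as reference genome and obtained FPKM per gene from StringTie 1.3.1. No source used here names the aligner. The deposited FPKM values hold no counts, so no count model was used. The tables of lncRNA transcripts were not used.

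Log2(FPKM + 0.1) was fitted by limma (version 3.58.1, R version 4.3.3, default eBayes, two-sided) over genes whose FPKM passed 0.1 in 3 samples or more, with Benjamini-Hochberg adjustment over 17708 genes at 0.1. Samples were not blocked. With 3 samples a group, the smallest p of an exact permutation test is 0.1, and none is reported. Fold changes are on the log2(FPKM + 0.1) scale, which understates changes of low genes. Relative depth was taken from the commonest ratio between samples of FPKM values below 0.5. The fit was tested on simulated data with changes larger than those of the members. It was thus not tested whether changes of the members' size would be found. The depth estimate was tested on simulated whole fragments. Python 3.11.15 and matplotlib 3.10.9 made the summaries and figures.

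The members and all gene lists were chosen with earlier results of these data known, so no list was tested as a whole. Values per sample are given for the inhibitors, MKI67, MYC and CCND1, the highest gene of each role, the members whose groups did not overlap (4 at most per role), and the 3 further genes with the largest change among those whose groups did not overlap. The other genes with values per sample, and the counts by sample number, were chosen after the values were seen. Genes not found by symbol were looked up by gene number or synonym in a RefSeq table of assembly Sscrofa11.1, used for names only. No sequence is shown. Alternatives were other pseudocounts (1 and 0.01), other filters (none, or a mean FPKM from 1 up), other scalings (quantile, median-ratio, the same total FPKM), a trended and robust fit, a threshold of 0.05, the replicate number as a block and leaving out each sample. Added after seeing the data were the 43 members found under any name and a fit without both samples numbered 1.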

Additional observations from a re-analysis of the deposited data

How the results depend on the processing

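No member passed under any alternative, and the lowest adjusted p of a member in them was 0.214, for TYMS with the trended and robust fit of limma. Among the further cell cycle genes 0 passed, except 2 higher without TGF-β1 replicate 2 (range 0 to 2 over single samples left out). Over all genes, the number higher was 9 and became 31 with a pseudocount of 0.01, 4 with a mean FPKM of at least 1, 19 with quantile normalization, 16 with median-ratio scaling, 15 with the trended and robust fit, 16 without both samples numbered 1, and 9 to 26 without single samples. The number lower was 8 and became 18 with a pseudocount of 0.01, 4 with no filter, 1 with a mean FPKM of at least 1, 31 with the trended and robust fit, 3 at a threshold of 0.05, and 4 to 20 without single samples. With the replicate block these numbers were 2 and 1, while genes at an unadjusted limma p under 0.05 went from 1768 to 2316. The numbers were not taken as pairs, as the methods of the paper name no block. The deviations of the samples with the same number had Pearson r of 0.251, 0.004 and 0.196 over all genes tested. Between numbers 1 and 3 of the 2 groups r was -0.21 and -0.235, so replicates 1 and 3 matched best with their own number. The median log2 fold change of S phase members, -0.27, was -0.17 with median-ratio scaling, -0.14 with the same total FPKM, -0.37 without both samples numbered 1, and -0.34 to -0.19 without single samples. That of G1/S members, -0.04, was 0.056 with median-ratio scaling, 0.086 with the same total FPKM and -0.11 to -0.02 without single samples. That of G2/M members, 0.00, was 0.098 with median-ratio scaling, 0.127 with the same total FPKM and -0.16 to 0.11 without single samples, and that of inhibitors -0.11 to 0.17.

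The sign turned with quantile normalization, median-ratio scaling and the same total FPKM for CDK4 (0.04, 0.028 and 0.057) and CDKN1B (0.014, 0.025 and 0.054), with the same total FPKM for MKI67 (0.02) and with a pseudocount of 1 for MYC (-0.003). Without single samples the range held both signs for CDK4 (-0.156 to 0.049), CDKN1A (-0.31 to 0.17), CDKN1B (-0.12 to 0.003), CDKN2C (-0.482 to 0.017), MYC (-0.31 to 0.18) and CCND1 (-0.032 to 0.545). The cause of these differences was not tested. The scalings shift the median of all genes by about 0.1 by their own construction. Read counts per gene are not in the files, so the spread from counting alone was not estimated.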

Other observations

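Among the further cell cycle genes, RPA3 and SMC2 stood apart, and both were picked after their values were seen. RPA3, a subunit of the protein that covers single-stranded DNA, had 3.46, 0.234 and 4.03 FPKM in the TGF-β1 samples, against 0.267, 0.107 and 0.252 FPKM in the NC samples. SMC2, a subunit of the condensin complexes that compact chromosomes, had 13.5, 4.27 and 11.6 FPKM in the TGF-β1 samples, against 4.03, 4.48 and 4.04 FPKM in the NC samples. In both genes TGF-β1 replicate 2 lay with the NC samples, within their range, while TGF-β1 replicates 1 and 3 were far above. With all samples the log2 fold changes were 2.51 (standard error 1.03, adjusted p = 0.511) and 1.05 (standard error 0.45, adjusted p = 0.520) from limma. Without TGF-β1 replicate 2 they were 3.68 and 1.56, with adjusted p of 0.0792 and 0.0851 from limma. The same sample was the lowest of all 6 for CDKN1A, at 15.5 FPKM. The cause was not tested.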
